A study of Mus musculus with 9 samples.

Results

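The nuclear-encoded subunits of the mitochondrial respiratory chain and ATP synthase were followed in mouse liver RNA. Members were taken by gene symbol, as names starting with Nduf, Uqcr, Atp5 or Cox followed by 4 to 8, together with Sdha, Sdhb, Sdhc and Sdhd, provided the gene did not lie on the mitochondrial chromosome. This gave 96 of the 21936 genes in the deposited table, with 95 distinct symbols because Atp5o stood for 2 gene identifiers. The symbols also took in genes that are not subunits. Set apart were the 8 complex I assembly factors Ndufaf1 to Ndufaf8, the supercomplex factor Cox7a2l and a gene named as a pseudogene, Cox5b-ps. The remaining symbols comprised 37 of complex I, 4 of complex II, 8 of complex III, 11 of the common complex IV subunits, 8 tissue isoforms of complex IV and 17 of ATP synthase. Ndufb1-ps, also named as a pseudogene, was counted among the 37 of complex I. Its type in the GENCODE M21 annotation is a bidirectional promoter long non-coding RNA, not a protein coding gene.

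RNA was sequenced from wild-type mouse livers taken 2 h after injection into the peritoneum. Animals received NaCl, 25 mg/kg retrorsine or 50 mg/kg retrorsine, and each group has 3 libraries. Retrorsine is a pyrrolizidine alkaloid that the liver converts to reactive pyrroles. The 25 mg/kg and 50 mg/kg livers were each compared with the NaCl livers, and the 50 mg/kg livers with the 25 mg/kg livers. All groups carried the wild-type genotype, and the labels give no strain, sex or age. The labels do not say that the libraries came from separate animals, so the p-values measure the spread between these libraries, which may be technical. In whole-liver RNA, fewer cells of a type and less RNA per cell cannot be told apart.

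The respiratory chain passes electrons from NADH (complex I) and from succinate (complex II) through ubiquinone to complex III and then by cytochrome c to complex IV, which reduces oxygen. Complexes I, III and IV pump protons across the inner mitochondrial membrane, and ATP synthase uses the resulting gradient to make ATP. Most subunits are encoded in the nucleus and imported, while a core set in complexes I, III, IV and ATP synthase is encoded by mitochondrial DNA. Hepatocytes are rich in mitochondria and use this ATP for gluconeogenesis, urea synthesis and secretion.

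The total count was between 15241261 and 18691736 per library. The members together held 1.20, 1.29 and 1.20% of the counts in the NaCl libraries, 1.54, 1.23 and 1.32% at 25 mg/kg and 1.19, 1.48 and 1.30% at 50 mg/kg. The 3 groups overlapped in this share, with replicate 1 at 25 mg/kg and replicate 2 at 50 mg/kg the highest. The summed level of 10 hepatocyte markers lay between 127600 and 166500 CPM (counts scaled to library size), and all 10 were detected. Pancreatic acinar markers, 13 genes, stood apart in NaCl replicate 1 with a sum of 7177 CPM, against 1080 and 279.9 CPM in the other NaCl libraries, between 11.6 and 18.4 CPM at 25 mg/kg, and between 10.7 and 407 CPM at 50 mg/kg. The macrophage and Kupffer cell markers summed to 320 to 430 CPM with NaCl, 415 to 612 CPM at 25 mg/kg and 278 to 642 CPM at 50 mg/kg. The endothelial and stellate cell markers summed to between 333 and 561 CPM, fat markers to between 8.59 and 50.3 CPM, and erythroid markers to between 49.1 and 315 CPM over the 9 libraries. At 25 mg/kg against NaCl edgeR called all 12 tested acinar markers and 1 hepatocyte marker lower and 1 macrophage marker, Cd68, higher. DESeq2 also called the 12 acinar markers lower at 25 mg/kg, and limma-voom called 0 of them. Of the macrophage markers DESeq2 called C1qa higher there as well as Cd68. The fitted values of all 8 macrophage and Kupffer cell markers lay above 0 at 25 mg/kg, and those of 5 at 50 mg/kg. At an unadjusted p under 0.05 there were 4 and 1 of the 8, against 28.6 and 31.2% of all genes. In the 50 mg/kg livers against NaCl edgeR called 1 gene of these lists, Cd68, higher. All 12 acinar markers were lower there at an unadjusted p under 0.05, with a median log2 fold change of -4.44, and edgeR called 0 of them. DESeq2 called Cela1 and limma-voom Ctrb1 of the acinar markers lower at 50 mg/kg, and DESeq2 also called Cps1, Kdr and Reln lower and Fabp4 higher. The part of these other cell types in the members' values was not tested. The comparisons were only repeated without NaCl replicate 1 and 50 mg/kg replicate 2, each the highest of its group in acinar reads. NaCl replicate 2, with 1080 CPM of acinar markers, was kept there.

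In NaCl liver the members spanned several orders of magnitude. On the scale of FPKM (fragments per kilobase of transcript scaled to library total, which corrects for gene length and depth), the median was 113 for complex II, 140 for complex III, 95.9 for the common complex IV subunits, 41.9 for ATP synthase and 30.5 for complex I. The complex I assembly factors, which help build the complex without staying in it, had a median of 5.70 FPKM. Cox6a1, a subunit of complex IV, was the highest member by FPKM, with 667 ± 103 FPKM (SD, n = 3) in NaCl liver. The tissue isoforms of complex IV had a median of 0.168 FPKM. The length behind the FPKM of each member was that of all exons of all its isoforms merged. For Atp5l, with a mean of 1.18 FPKM, a length of 6443 bases was used, while its longest annotated transcript has 544 bases. For Atp5b the length was 4237 bases, against 1916 in its longest annotated transcript, and its CPM lay above that of Cox6a1. Ranks by FPKM therefore depend on the lengths used.

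**Figure D1:**
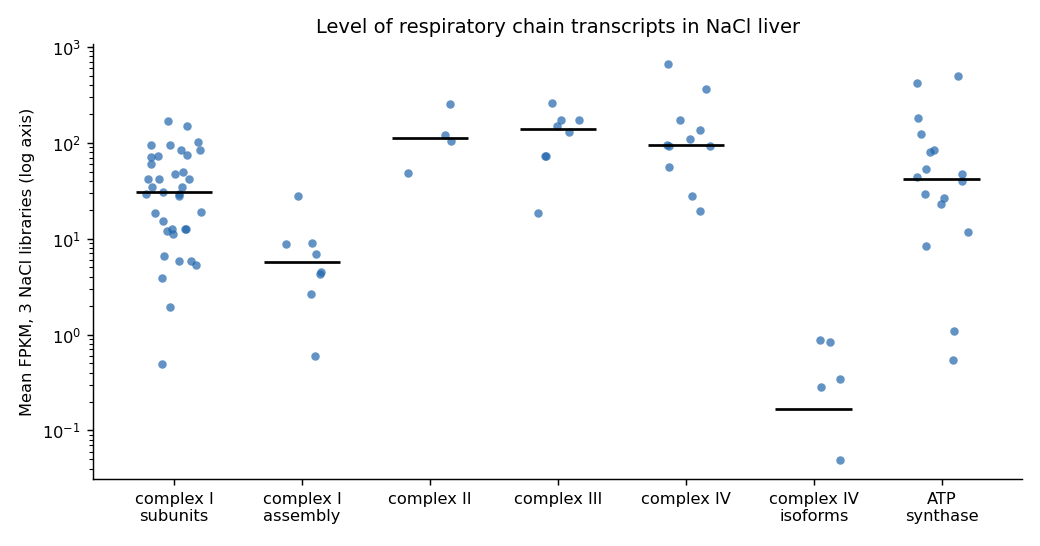
Level of the respiratory chain genes in NaCl liver. Each point is the mean FPKM of 1 gene over 3 NaCl libraries on a log axis, grouped by complex, and bars mark the median of the group. Complex III is the highest group with a median of 140 FPKM, the tissue isoforms of complex IV lie near the bottom at 0.168 FPKM, and genes at 0, Cox7a2l and Cox5b-ps are not drawn.

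For 24 members another gene of the GENCODE M21 annotation matched the transcript over at least 200 bases with 95% identity or more, which makes their counts uncertain. Atp5l had 9 such genes. Among the genes named here, Atp5g1, Ndufab1, Ndufb4, Ndufb11, Ndufs5, Cox5b, Cox7a2l, Cox5b-ps and both Atp5o identifiers belong to this group. The exons of the second Atp5o identifier lay wholly within other genes on the same strand, and it had 0 counts in all 9 libraries. For 31 members exons overlapped those of a gene on the opposite strand.

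Promoter sequences were compared as a feature that the symbols did not use. RefSeq promoter windows of 300 bases, from 250 bases before to 50 bases after the gene start in GRCm38.p6, were matched for 77 symbols, with 82 windows. They were searched on both strands. The motif of NRF1, a factor known to drive many respiratory chain genes, was written as GCGCNTGCG and was present in 32.9% of members' windows, against 6.31% of all 32851 windows and 12.4% of the windows of genes tested. The YY1 motif AAGATGGCG was present in 9.76% of members' windows, against 1.4% of all windows and 2.81% of the windows of genes tested. The ETS motif CCGGAAGT, which GABP recognises, was present in 6.1% of members' windows, against 3.89% of all windows and 7.52% of the windows of genes tested. The letters TATAAA were present in 11% of members' windows, against 13.6% of all windows and 7.83% of the windows of genes tested. Matches of different motifs overlapped in 0 of the 82 members' windows, and a match describes the letters, not binding. The stretches below belong to the member with the highest FPKM, Cox6a1 (chr5:115349014-115349123, minus strand), to the complex II flavoprotein gene Sdha (chr13:74350241-74350350, minus strand) and to Cox7a2l (chr17:83514334-83514443, minus strand), the member with the lowest p-value at 25 mg/kg. Each is 110 bases long and is given 5′ to 3′ on the strand of the gene. RefSeq's start of Cox7a2l lies inside the gene as the deposited table gives it. Capitals mark bases covered by a match to the NRF1 letters on either strand, and the Cox7a2l stretch holds no match.
Cox6a1: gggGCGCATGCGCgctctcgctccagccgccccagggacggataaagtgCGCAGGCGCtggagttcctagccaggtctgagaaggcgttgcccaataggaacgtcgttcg
Sdha: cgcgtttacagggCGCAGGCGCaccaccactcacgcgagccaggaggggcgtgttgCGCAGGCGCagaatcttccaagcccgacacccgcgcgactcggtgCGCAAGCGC
Cox7a2l: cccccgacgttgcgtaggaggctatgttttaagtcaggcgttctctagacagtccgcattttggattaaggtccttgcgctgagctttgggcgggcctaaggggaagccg

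No member passed the test in any of the 3 comparisons. Of the 90 members that passed the low count filter, the quasi-likelihood test of edgeR, adjusted by Benjamini-Hochberg, called 0 at 25 mg/kg against NaCl, where it called 13.5% of all 12557 genes tested, 5.90% higher and 7.56% lower. It called 0 at 50 mg/kg against NaCl, where 15.1% of all genes were called, 7.09% higher and 8.01% lower. Between 50 mg/kg and 25 mg/kg it called 0 members, where 0.00796% were called. At an unadjusted p under 0.05 there were 2, 5 and 2 members in these comparisons, against 28.6, 31.2 and 8.59% of all genes. DESeq2 called Cox7a2l at 25 mg/kg, Ndufa13 and Ndufa7 at 50 mg/kg and 0 members between the doses, and limma-voom called 0 in each comparison. Over all 12557 genes DESeq2 called 2404, 2630 and 71 in these comparisons, and limma-voom called 1662, 1827 and 1. The 6 members that failed the filter were the second Atp5o identifier, Cox4i2, Cox6a2, Cox7b2, Cox8b and Cox8c.

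The fitted log2 fold changes of the members were small and mostly positive, except with an offset by gene span, where their medians were -0.04 and -0.04 against NaCl. At 25 mg/kg against NaCl 83 of 90 lay above 0, with a median of 0.19, while 50.8% of all genes tested lay above 0 and their median was 0.01. At 50 mg/kg against NaCl 82 of 90 lay above 0, with a median of 0.21, while 50.1% of all genes lay above 0 and their median was 0.00. The 95% interval of the fold change lay wholly between -1 and 1 on the log2 scale in 80 and 82 of the 90 members, 88.9 and 91.1%, against 46.8 and 45.4% of all genes. At a mean of 100 CPM or more it did so in 36 and 35 of 36 members, against 72.8 and 73.7% of 1348 genes. The members also varied little around their median: the SD of their log2 fold changes was 0.16 at 25 mg/kg and 0.23 at 50 mg/kg, against 1.00 and 0.90 for all genes. At a mean of 100 CPM or more the SD was 0.11 and 0.12 for members, against 0.84 and 0.65 for all genes of that level. Without replicate 1 at 25 mg/kg the first median was 0.07, and 56 of 90 lay above 0. Without replicate 2 at 50 mg/kg the second median was 0.14, with 67 of 90 above 0, and without replicate 1 at 50 mg/kg it was 0.32.

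**Figure D2:**
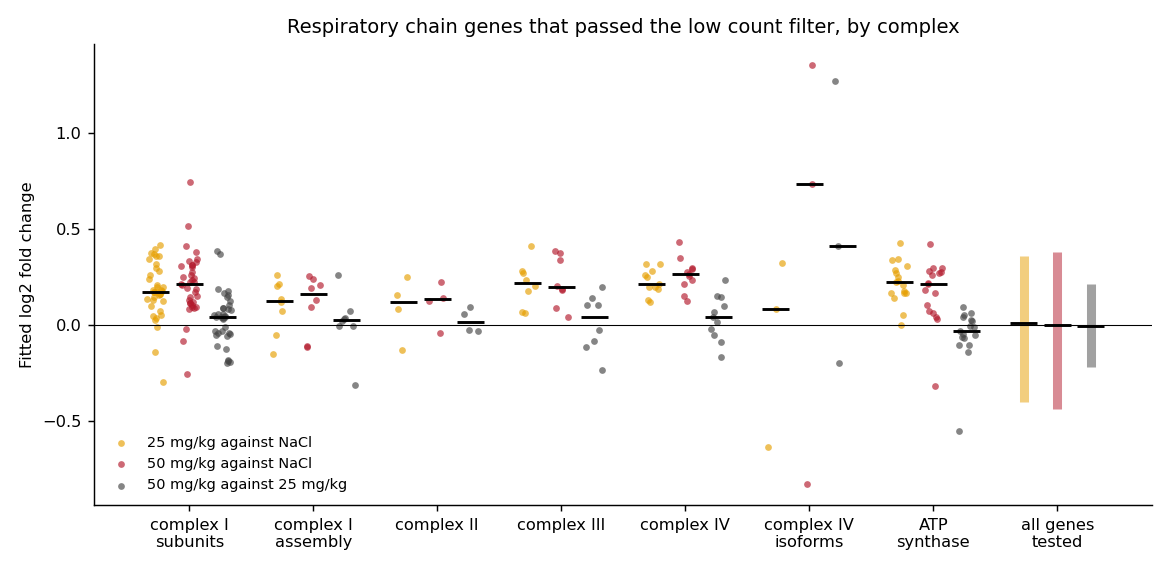
Fitted log2 fold changes of the tested members by complex, without Cox7a2l and Cox5b-ps. Each point is 1 gene, coloured by comparison, black bars mark the median of each group, and the broad bars at the right cover the middle 50% of all 12557 genes tested. Against NaCl most points lie just above 0 with medians of 0.19 and 0.21 over all members, and the points farthest from 0 are tissue isoforms of complex IV with few counts.

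Complexes I, III and IV and ATP synthase were above their mean level in the same libraries and below it in the same libraries. The mean centred log2 CPM (each gene's log2 CPM minus its own mean over the 9 libraries, averaged over the tested genes of a group) of complex IV was -0.05, -0.10 and -0.31 with NaCl, 0.36, -0.09 and -0.11 at 25 mg/kg and -0.10, 0.17 and 0.24 at 50 mg/kg. Complex I had -0.07, -0.10 and -0.21 with NaCl, 0.26, -0.06 and -0.06 at 25 mg/kg and -0.12, 0.22 and 0.15 at 50 mg/kg. In both complexes replicate 1 at 25 mg/kg and replicates 2 and 3 at 50 mg/kg were high, the other retrorsine libraries lay within the range of the NaCl libraries or close to it, and the groups overlapped. Complex II was the flattest of the 5, between -0.14 and 0.21 over the 9 libraries. It lay above 0 in NaCl replicate 1 (0.05) and 25 mg/kg replicate 2 (0.03), where the other complexes lay below 0.

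**Figure D3:**
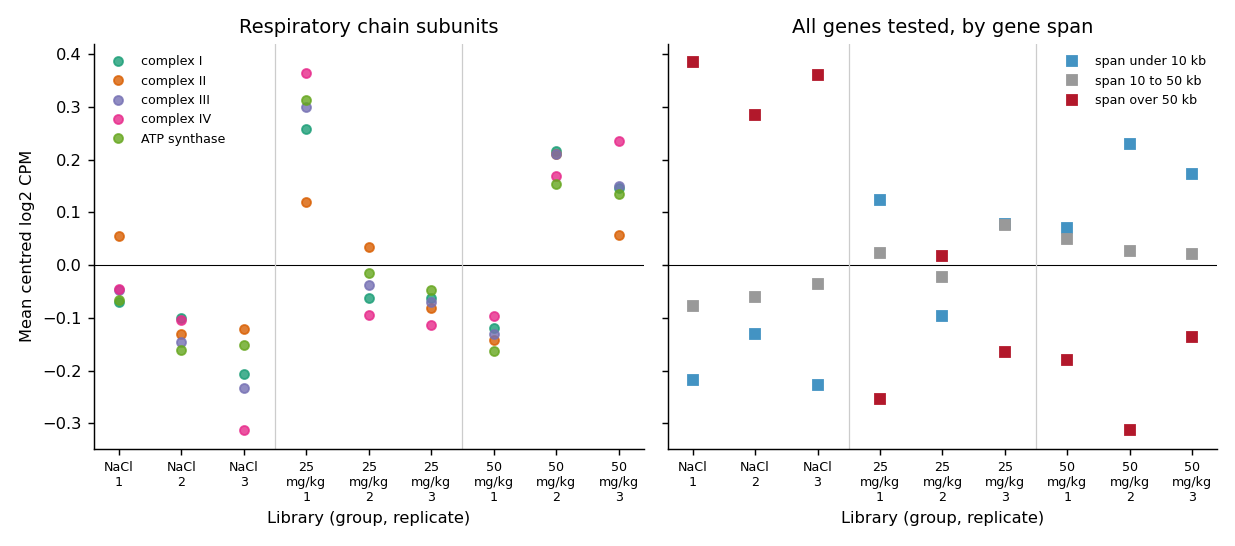
Mean centred log2 CPM per library, with replicates numbered below each group. Left, the 5 complexes of the respiratory chain, where 25 mg/kg replicate 1 and 50 mg/kg replicates 2 and 3 lie highest; right, all genes tested, split by gene span, where genes over 50 kb are highest in the NaCl libraries.

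Complex I oxidises NADH. Its 37 genes had a median log2 fold change of 0.17 at 25 mg/kg and 0.21 at 50 mg/kg against NaCl, and 34 of 37 lay above 0 in each comparison. The 7 core subunits, which carry the flavin and the iron-sulfur clusters, had medians of 0.10 and 0.12. The 30 genes counted as accessory subunits, Ndufb1-ps among them, had 0.19 and 0.23. Whether core and accessory subunits differed was not tested. The highest fitted value of the complex at 50 mg/kg belonged to Ndufb2, an accessory subunit singled out after its values were seen, with 42, 98 and 70 counts at 50 mg/kg and 42, 40 and 66 counts with NaCl.

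Ndufa13, an accessory subunit also known as GRIM-19 (chr8:69894180-69902558, minus strand), had 107, 152 and 115 CPM in the 50 mg/kg libraries, against 85.5, 93.8 and 81.6 CPM in the NaCl libraries. The groups did not overlap, and the highest value again belonged to replicate 2. A gene on the opposite strand covers 30% of the exon length of Ndufa13, and its part in these counts is not known. The log2 fold change was 0.52 ± 0.17 (SE, n = 3 each; edgeR adjusted p = 0.0654). At 25 mg/kg Ndufa13 had 123, 109.5 and 102 CPM, also above the NaCl libraries, with a log2 fold change of 0.36 and an edgeR adjusted p of 0.19. Without replicate 1 at 50 mg/kg the call passed, with a log2 fold change of 0.62.

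Ndufa7, another accessory subunit (chr17:33824572-33838317, plus strand), had 80.25, 82.9 and 84.7 CPM at 50 mg/kg, against 56.2, 67.65 and 62.7 CPM with NaCl. These groups did not overlap, and the 50 mg/kg libraries lay close together. The log2 fold change was 0.41 ± 0.15 (SE; edgeR adjusted p = 0.0913). At 25 mg/kg the values were 84.7, 69.7 and 66.1 CPM, and 1 of them fell inside the range of the NaCl libraries.

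Ndufb11, Ndufb4 and Ndufab1 were the other complex I genes among the 6 with the lowest p-value at 25 mg/kg. Ndufb11 had 109, 90.6 and 87.5 CPM at 25 mg/kg, against 77.0, 74.1 and 72.5 CPM with NaCl, with a log2 fold change of 0.36 (edgeR adjusted p = 0.158). Ndufab1, the mitochondrial acyl carrier protein, had 18.0, 15.95 and 18.9 CPM at 25 mg/kg, against 13.8, 12.8 and 13.0 CPM with NaCl, with a log2 fold change of 0.42 (edgeR adjusted p = 0.215). Neither gene overlapped between these groups. Ndufb4 did overlap, with 35.5, 24.8 and 32.1 CPM at 25 mg/kg and 27.2, 21.2 and 23.3 CPM with NaCl. At 50 mg/kg Ndufs5, an accessory subunit on the intermembrane space side, had 41.1, 45.0 and 46.3 CPM, against 38.0, 33.0 and 35.7 CPM with NaCl, with a log2 fold change of 0.31 (edgeR adjusted p = 0.148).

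Ndufs1, the largest core subunit and the carrier of several iron-sulfur clusters, had fitted values below 0. It had 110.4, 80.5 and 94.9 CPM with NaCl, 78.8, 81.8 and 71.8 CPM at 25 mg/kg and 69.3, 91.4 and 78.6 CPM at 50 mg/kg. The groups overlapped in both comparisons. The log2 fold changes were -0.30 and -0.26, with edgeR adjusted p of 0.275 and 0.327. The core flavoprotein Ndufv1, where NADH is oxidised, had log2 fold changes of 0.10 and 0.15. Ndufa9 and Ndufb8, accessory subunits, had 0.04 and 0.09, and 0.18 and 0.22, at 25 and 50 mg/kg against NaCl. The 8 assembly factors had medians of 0.13 and 0.16, with 6 of 8 above 0 in each comparison.

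**Figure D4:**
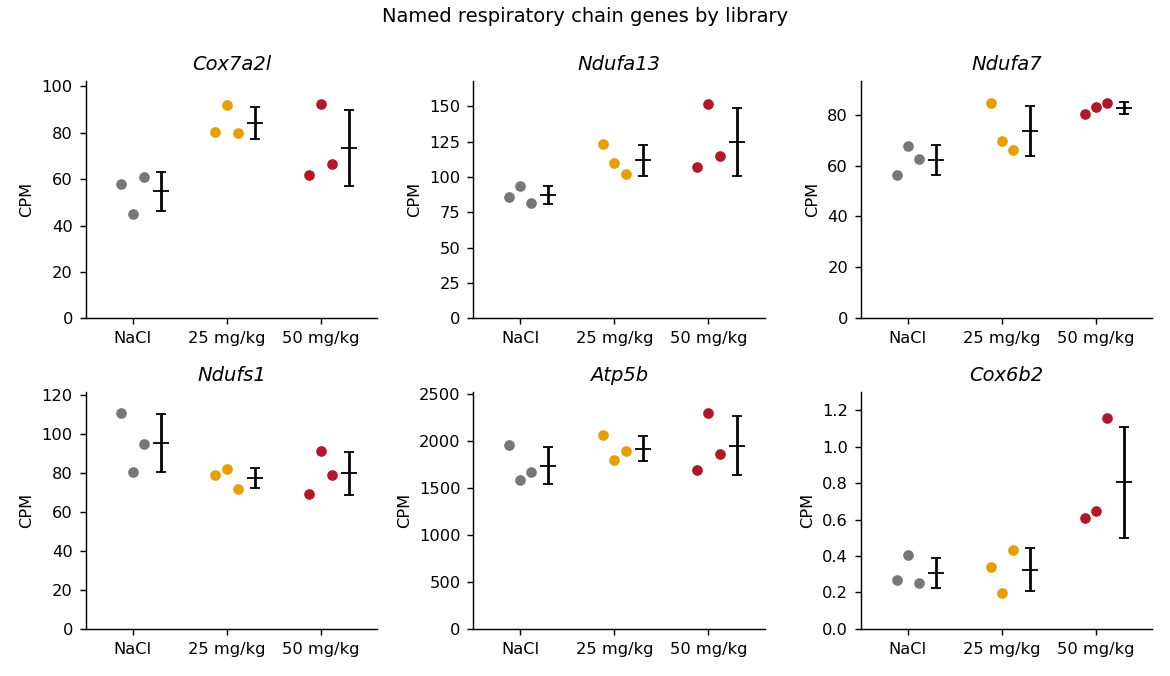
CPM of 6 named genes in every library, with points for single libraries and the bar beside them for the mean ± SD (n = 3). Cox7a2l and Ndufa13 have all retrorsine libraries above the NaCl libraries, Ndufa7 has those at 50 mg/kg above them, Ndufs1 is lower on average with retrorsine and overlaps, and Cox6b2 stays under 1.2 CPM in all libraries.

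Complex II, succinate dehydrogenase, is the member shared with the tricarboxylic acid cycle and has no subunit from mitochondrial DNA. Sdha, the flavoprotein that binds succinate, had 454, 458 and 427 CPM at 25 mg/kg, against 517, 466 and 485 CPM with NaCl. All 25 mg/kg libraries lay below all NaCl libraries, but the log2 fold change was -0.13, with a 95% interval from -0.41 to 0.145 (edgeR adjusted p = 0.526). At 50 mg/kg the values were 461, 511 and 455 CPM, the groups overlapped, and the log2 fold change was -0.04. The iron-sulfur subunit Sdhb had log2 fold changes of 0.25 and 0.22, and the membrane anchors Sdhc and Sdhd had 0.16 and 0.13, and 0.08 and 0.14.

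Complex III passes electrons from ubiquinol to cytochrome c. Its 8 genes had medians of 0.22 at 25 mg/kg and 0.20 at 50 mg/kg, and all 8 fitted values lay above 0 in both comparisons, with 0 called by edgeR, DESeq2 or limma-voom and 0 at an unadjusted p under 0.05. The Rieske iron-sulfur protein gene Uqcrfs1 had 265, 199.5 and 237 CPM with NaCl, 279.5, 272 and 257 CPM at 25 mg/kg and 195, 306 and 246 CPM at 50 mg/kg. Its values at 50 mg/kg enclosed the whole range of the NaCl libraries, and the log2 fold changes were 0.20 and 0.09. The core proteins Uqcrc1 and Uqcrc2 had 0.06 and 0.20, and 0.07 and 0.04. The fitted direction of Uqcrc2 turned at both doses without NaCl replicate 2, and at 50 mg/kg also without replicate 2 of that dose and with scaling by library totals. Without 25 mg/kg replicate 1, that of Uqcrc1 turned at 25 mg/kg, and without 50 mg/kg replicate 2 that of Uqcrfs1 turned at 50 mg/kg.

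Complex IV, cytochrome c oxidase, had fitted values above 0 for all 11 common subunits in both comparisons with NaCl, with 0 called by edgeR and 0 and 1 at an unadjusted p under 0.05. Their log2 fold changes lay between 0.12 and 0.32 at 25 mg/kg and between 0.12 and 0.43 at 50 mg/kg, with medians of 0.21 and 0.27. Cox6a1 had 502, 651 and 702 CPM at 50 mg/kg, against 464, 515.5 and 396 CPM with NaCl, so that 1 of the 50 mg/kg libraries lay within the NaCl range. Its log2 fold change was 0.43 ± 0.20 (SE; edgeR adjusted p = 0.171). Cox7a2, the liver form of subunit 7a, had 120.2, 134 and 137 CPM at 50 mg/kg, against 106, 107.5 and 93.0 CPM with NaCl. The groups did not overlap, and the log2 fold change was 0.35 ± 0.14 (SE; edgeR adjusted p = 0.113). Cox4i1, the largest nuclear subunit of the complex, had log2 fold changes of 0.13 and 0.28 at 25 and 50 mg/kg. Cox5a and Cox5b, which are further nuclear subunits, had 0.20 and 0.30, and 0.25 and 0.29. Without replicate 1 at 25 mg/kg the values of Cox4i1, Cox5a and Cox5b in the first comparison were below 0. Cox6b1 had 0.21 and 0.12, Cox8a 0.32 and 0.27, and Ndufa4, a complex IV subunit in spite of its name, 0.31 and 0.15.

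Tissue isoforms of complex IV, which replace liver forms in muscle, lung or testis, had few counts. Cox7b2 and Cox8c had 0 counts in every library, Cox8b had 0 or 1 count in every library, and Cox6a2, the heart and muscle form, had 0 to 2. Cox4i2, a lung form, had 0 to 9 counts. Cox7a1, the muscle form of subunit 7a, had between 3 and 17 counts per library, with log2 fold changes of 0.32 and 0.73 and edgeR adjusted p of 0.783 and 0.45. Leaving out 1 library in turn, its value ranged from -0.10 to 1.23 at 25 mg/kg and from 0.31 to 1.64 at 50 mg/kg. The 12 skeletal and heart muscle markers summed to between 1.25 and 4.65 CPM per library, and 2 of them were at 0 in all libraries. In per-length terms Cox7a2 stood at 110 FPKM in NaCl liver, against a highest value of 0.867 FPKM among the isoforms. The muscle forms had few counts in every library, and switching between liver and muscle isoforms was not tested.

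Cox6b2, the testis form of subunit 6b, had 0.269, 0.404 and 0.251 CPM with NaCl, 0.341, 0.199 and 0.433 CPM at 25 mg/kg and 0.608, 0.650 and 1.16 CPM at 50 mg/kg. The 50 mg/kg libraries lay above both other groups, at 3 to 17 counts per library in all 9. The log2 fold change was 1.35 with a 95% interval from 0.24 to 2.47 against NaCl (edgeR adjusted p = 0.096) and 1.27 against 25 mg/kg (edgeR adjusted p = 0.546). Ndufa4l2, the hypoxia-induced relative of Ndufa4, had 12, 20 and 17 counts with NaCl, 11, 10 and 8 at 25 mg/kg and 4, 11 and 8 at 50 mg/kg. Both retrorsine groups lay below the NaCl libraries, with log2 fold changes of -0.63 at 25 mg/kg and -0.83 at 50 mg/kg and edgeR adjusted p of 0.401 and 0.257.

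Cox5b-ps is a pseudogene of Cox5b by its symbol and a protein coding gene by its type in GENCODE M21. It had 12.2, 10.5 and 10.2 CPM at 25 mg/kg, against 7.93, 10.5 and 6.58 CPM with NaCl, so that the groups overlapped, with log2 fold changes of 0.40 at 25 mg/kg and 0.36 at 50 mg/kg. It shares sequence with Cox5b, and reads of the pair may have been divided between them.

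Cox7a2l encodes a factor that joins complex III and complex IV into supercomplexes (chr17:83501918-83517330, minus strand). It had 80.2, 92.0 and 79.9 CPM at 25 mg/kg, against 57.8, 45.1 and 61.1 CPM with NaCl. No 25 mg/kg library came near the NaCl libraries. The fold change was 1.54, with a 95% interval from 1.14 to 2.07, and the edgeR adjusted p was 0.0618. At 50 mg/kg it had 61.7, 92.4 and 66.6 CPM, all above the NaCl libraries but by little in 2 of them, with a fold change of 1.345 (edgeR adjusted p = 0.161). Of the 90 tested members it had the lowest p-value and the highest fitted fold change at 25 mg/kg. The call at 25 mg/kg passed without replicate 2 at 50 mg/kg, with a log2 fold change of 0.62, when only the groups compared were fitted, and with DESeq2 (adjusted p = 0.024). The direct comparison of 50 mg/kg with 25 mg/kg gave -0.19 on the log2 scale (edgeR adjusted p = 0.829).

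ATP synthase had 17 tested genes with medians of 0.22 at 25 mg/kg and 0.21 at 50 mg/kg. The catalytic beta subunit gene Atp5b had 1957, 1586 and 1671 CPM with NaCl, 2060, 1797 and 1889 CPM at 25 mg/kg and 1693, 2299 and 1856 CPM at 50 mg/kg. All 3 ranges overlapped, and the log2 fold changes were 0.14 and 0.17. Atp5a1, the alpha subunit gene, had log2 fold changes of 0.00 and 0.04, with 95% intervals from -0.36 to 0.36 and from -0.32 to 0.40. The rotor ring of the enzyme is built from a c subunit encoded by 3 genes with the same mature product, Atp5g1, Atp5g2 and Atp5g3. Atp5g3 gave 55.0 ± 1.3, 54.9 ± 0.6 and 54.1 ± 1.6% of their summed FPKM with NaCl, 25 mg/kg and 50 mg/kg (SD, n = 3 each), and the 3 groups overlapped. The size of this share depends on the lengths behind the FPKM. These were 4912, 1675 and 2181 bases for Atp5g1, Atp5g2 and Atp5g3, against 4715, 753 and 723 bases in their longest annotated transcripts. Atp5g2 had 106, 98.2 and 91.4 CPM at 25 mg/kg, against 73.7, 85.6 and 74.0 CPM with NaCl, without overlap (log2 fold change 0.34, edgeR adjusted p = 0.208). Atp5o, listed under the first identifier, had between 8 and 32 counts per library. Atpif1, the inhibitor that blocks ATP hydrolysis and is not a member by symbol, had 0.398, 1.595 and 0.704 CPM at 25 mg/kg, against 0.135, 1.06 and 0.452 CPM with NaCl, with edgeR adjusted p of 0.583.

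Of the 90 tested members, 12 did not overlap between 25 mg/kg and NaCl, 10 above and 2 below, which is 13.3% against 36.5% of all genes, 17.7% above and 18.8% below. The same number, 12, did not overlap between 50 mg/kg and NaCl, 11 above and 1 below, against 35.0% of all genes, 16.6% above and 18.5% below. Between 50 mg/kg and 25 mg/kg 2 members did not overlap, Ndufa8 and Cox6b2, both above, which is 2.22% against 11.4% of all genes, 5.38% of them above. Both comparisons with NaCl use the same 3 NaCl libraries.

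Between the doses the members showed little difference. The median log2 fold change of 50 mg/kg against 25 mg/kg was 0.03, with 49 of 90 above 0, and 84 of 90 intervals, 93.3%, lay wholly between -1 and 1, against 60.4% of all genes. This median ranged from -0.06 to 0.13 over the alternatives. It lay below 0 under upper quartile scaling and library totals, and without any 1 of replicates 2 and 3 at either dose. It also did so without NaCl replicate 1 and 50 mg/kg replicate 2 together. Ndufa8, an accessory complex I subunit, had 161, 176 and 176 CPM at 50 mg/kg, against 157, 108 and 127 CPM at 25 mg/kg. The log2 fold change was 0.39 (edgeR adjusted p = 0.555), and the 50 mg/kg values lay above all 25 mg/kg values by a small margin. Cox7a2 and Ndufs5 followed with 0.23 and 0.19, and the assembly factor Ndufaf1 and Atp5o with -0.31 and -0.55, all with edgeR adjusted p of 0.691 or more.

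The members are short genes, and the log2 fold changes of all genes varied with gene span, the distance from start to end including introns. Tested members had a median span of 7.33 kb, against 23.8 kb over all genes tested, and 62 of 90 spanned under 10 kb. Genes under 10 kb had a median log2 fold change of 0.24 at 25 mg/kg and 0.31 at 50 mg/kg, and genes over 50 kb had -0.44 and -0.53. Members under 10 kb had 0.21 and 0.25, close to but not above the genes of like span. Of all genes under 10 kb 72.1 and 76.4% lay above 0, and of members under 10 kb 96.8 and 95.2%. With an offset per library that follows the trend with span, an alternative chosen after seeing the data, the members' medians were -0.04 and -0.04, and 34 and 36 of 90 lay above 0. This offset centres the genes of each span near 0 by its construction, and genes under 10 kb had medians of -0.02 and -0.00024. Under it Ndufs4, a complex I subunit with a span of 100.5 kb that was singled out after its values were seen, was called higher in both comparisons, with log2 values of 0.67 and 0.75 (edgeR adjusted p = 0.0424 and 0.0322). In the fit without the offset Ndufs4 had 0.21 and 0.17, with adjusted p of 0.429 and 0.492.

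**Figure D5:**
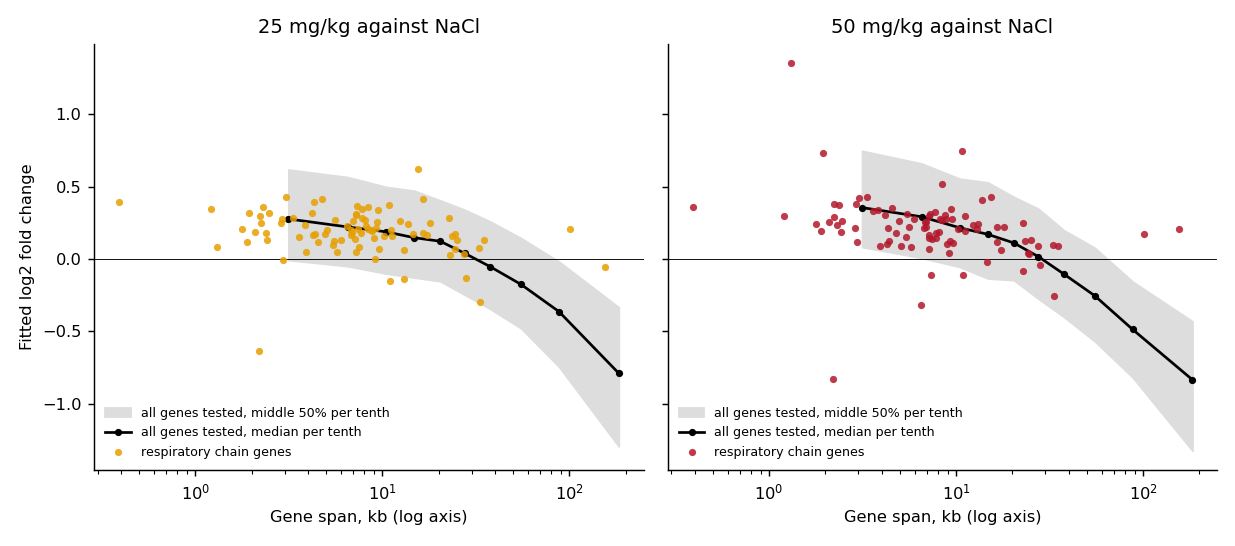
Fitted log2 fold change against gene span in kb on a log axis, at 25 mg/kg and 50 mg/kg against NaCl. Coloured points are the tested respiratory chain genes, the black line joins the medians of all genes tested in 10 bins of equal number ordered by span, and the grey band covers the middle 50% of each bin. Most members sit at the short end, near the line, which falls below 0 for long genes.

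The subunits encoded by mitochondrial DNA were 13 genes, of which 11 were tested. In the comparisons with NaCl edgeR, DESeq2 and limma-voom called 0 of them. They had 1 and 0 genes at an unadjusted p under 0.05, against 28.6 and 31.2% of all genes. Their summed counts made up 1.48 to 3.22% of the counts in each library. By groups the share was 2.08 ± 0.53% with NaCl, 2.66 ± 0.66% at 25 mg/kg and 2.11 ± 0.74% at 50 mg/kg (SD, n = 3 each). The groups overlapped. All 11 fitted log2 fold changes lay above 0 at 25 mg/kg, with a median of 0.41, and 7 of 11 at 50 mg/kg, with a median of 0.01. For 50 mg/kg against 25 mg/kg 0 of 11 lay above 0, with a median of -0.31, and edgeR, DESeq2 and limma-voom called 0 of them. There was 1 at an unadjusted p under 0.05, against 8.59% of all genes.

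Other genes of mitochondrial energy metabolism were read from lists. Of 40 tested assembly factors outside the symbol rule, Cox15, which makes heme A for complex IV, fell at both doses, with log2 fold changes of -0.70 and -0.60 (edgeR adjusted p = 0.0322 and 0.0495). Acad9, a complex I assembly factor, fell at 50 mg/kg with -0.57 (edgeR adjusted p = 0.0377), and edgeR called 0 of the 40 higher. These were 1 and 2 of the 40 called lower at 25 and 50 mg/kg, where 7.56 and 8.01% of all genes were called lower. With the offset by gene span Acad9 had -0.59 and the call did not pass (edgeR adjusted p = 0.0559). DESeq2 called 1 of them, Tmem186, higher at 50 mg/kg. Of 18 electron carriers and entry points, Gpd2, the mitochondrial glycerol phosphate dehydrogenase, fell at 25 mg/kg to 12.8, 14.3 and 17.0 CPM, against 40.4, 31.4 and 39.8 CPM with NaCl. Its log2 fold change was -1.34 (edgeR adjusted p = 0.00188), and at 50 mg/kg it was -0.25 with 31.2, 32.3 and 30.3 CPM (edgeR adjusted p = 0.322). Over 21 alternatives the value at 25 mg/kg ranged from -1.46 to -0.71 and was called in each. Leaving out 1 library in turn gave -1.46 to -1.25. With the offset by gene span the value at 50 mg/kg was 0.46 (edgeR adjusted p = 0.127). The direct comparison of 50 mg/kg with 25 mg/kg gave 1.09 for Gpd2 (edgeR adjusted p = 0.209), and DESeq2 called it higher.

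Of 16 tricarboxylic acid cycle genes, Idh3a, a subunit of isocitrate dehydrogenase, and Dlat, of pyruvate dehydrogenase, fell at 25 mg/kg, with -0.75 and -0.64 (edgeR adjusted p = 0.0287 and 0.0324). These were 2 of 16 called lower, where 7.56% of all genes were called lower. At 50 mg/kg 0 genes of the list were called by edgeR, DESeq2 or limma-voom. There 3 of the 16 had an unadjusted p under 0.05, against 31.2% of all genes. Of 14 carriers Slc25a13, the aspartate glutamate carrier, fell at both doses with -0.95 and -1.20 (edgeR adjusted p = 0.0373 and 0.0151). With the offset by gene span it had -0.20 and -0.38, and neither call passed (edgeR adjusted p = 0.635 and 0.313). DESeq2 also called the carrier gene Slc25a25 higher at 50 mg/kg, against both NaCl and 25 mg/kg, where edgeR gave a log2 fold change of 1.27 against NaCl (adjusted p = 0.0883) and an adjusted p of 0.546 between the doses. Among 16 regulators of mitochondrial biogenesis and 18 genes of mitochondrial stress and quality control, edgeR called 0 at either dose. At an unadjusted p under 0.05 there were 0 and 1 of them at 25 mg/kg and 4 and 4 at 50 mg/kg. Over all genes the share was 28.6% at 25 mg/kg and 31.2% at 50 mg/kg. DESeq2 called 3 of the regulators at 50 mg/kg, Polg2, Ppargc1a and Pprc1, 2 higher and 1 lower. It called the stress gene Atf5 higher at both doses, and limma-voom called 0 of these lists. Over all 12557 genes DESeq2 called 2404 at 25 mg/kg and 2630 at 50 mg/kg. The calls of Cox15, Idh3a and Dlat at 25 mg/kg were lost without any 1 library of the groups compared, other than NaCl replicate 2 for Idh3a and Dlat. The call of Slc25a13 at 25 mg/kg was lost without any 1 NaCl library or without replicate 1 or 3 at 25 mg/kg, and at 50 mg/kg without NaCl replicate 3. The calls of Cox15 at 50 mg/kg, without any 1 library except 50 mg/kg replicate 3, and of Acad9, without any 1 library except 25 mg/kg replicate 2 or 50 mg/kg replicate 3, were also lost. Without a library Cox15 ranged from -0.75 to -0.63 at 25 mg/kg and from -0.73 to -0.43 at 50 mg/kg, Acad9 from -0.64 to -0.49, Idh3a from -0.85 to -0.66, Dlat from -0.75 to -0.55, and Slc25a13 from -1.17 to -0.83 and from -1.39 to -0.96. The call of Gpd2 was kept without each library in turn. Without NaCl replicate 1 and 50 mg/kg replicate 2 together, or without the libraries highest in members, all these calls except that of Gpd2 were lost. At 50 mg/kg Cox15 also did not pass with RLE scaling, with no filter or with only the groups compared (edgeR adjusted p = 0.057, 0.0643 and 0.0871). Acad9 did not pass there with no filter or with only the groups compared (edgeR adjusted p = 0.0591 and 0.0567).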

How the data were processed

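The deposited table gives, per the file headers, a read count per gene and library made by the authors and the authors' FPKM values. The counts are whole numbers that were not normalized, and for 100% of values the FPKM lay within 1% of the count divided by gene length and library total. Per the submitters' processing notes the reads were aligned with HISAT2 to GRCm38. Neither a counting tool, nor an annotation release or strand setting, is given in the sources used here. Reads of overlapping or antisense genes therefore cannot be told apart.

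Tests used edgeR 4.0.16 under R 4.3.3. After filterByExpr and TMM scaling, each of the 3 groups had its own mean in 1 model of the 9 libraries, which leaves 6 residual degrees of freedom. P-values of the quasi-likelihood F test were adjusted by Benjamini-Hochberg over all 12557 genes tested, with a threshold of 0.05. CPM used TMM-scaled library sizes, with a prior count of 2 for log2 values. DESeq2 1.42.0 and limma 3.58.1 (voom) were alternatives, together with other scalings and filters, with fits restricted to the groups compared, with the replicate number as a block and with each library left out in turn. The scripts were tested on simulated data. Per-length levels used FPKM. Intervals cover the spread between libraries.

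The text names the 6 members with the lowest p-value in a comparison, fixed representatives of each complex, the isoform pairs and up to 3 genes of each other list. Members and lists were chosen with earlier results of these data known. Libraries of a group differed beyond sampling noise, with chi-square per gene between 41.2 and 104.8.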

Additional observations from a re-analysis of the deposited data

How the results depend on the processing

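Over 21 alternatives, 18 of them planned, the count of members called stayed at 0 in 17 for 25 mg/kg against NaCl, in 18 for 50 mg/kg against NaCl and in all 21 between the doses. DESeq2 called 1 member at 25 mg/kg and 2 at 50 mg/kg, where it called 2404 and 2630 of all 12557 genes. Fitting only the groups compared called 1 at 25 mg/kg. Leaving out 1 library gave 0 to 1 members called higher in both comparisons with NaCl, and 14 rather than 5 at an unadjusted p under 0.05 without 50 mg/kg replicate 1. The offset by gene span called 1 member in each comparison with NaCl and gave medians of -0.038 and -0.042. It was chosen after seeing the data. So was the removal of the libraries highest in members (25 mg/kg replicate 1 and 50 mg/kg replicate 2). So was that of NaCl replicate 1 and 50 mg/kg replicate 2, each the highest of its group in acinar reads. With these last 2 left out and NaCl replicate 2 kept, the medians were 0.23 and 0.18. The replicate block called 0 members in each comparison, with 1108, 1229 and 0 of all genes. With it the edgeR adjusted p was 0.069 and 0.0884 for Cox15 at 25 and 50 mg/kg, 0.0918 for Acad9 at 50 mg/kg, and 0.0685 for Idh3a, 0.0793 for Dlat and 0.0524 for Slc25a13 at 25 mg/kg, so that these did not pass. Of 9 pairs of same-numbered libraries 2 had a correlation of deviations over 0.1, in a range from -0.23 to 0.136. These values show no clear pairing by replicate number and cannot exclude one. Among 84 results of named genes, 37 turned sign in some alternative, and the cause was not tested. At 25 mg/kg Atp5a1 had -0.0036 with RLE scaling, -0.0036 with DESeq2, -0.00010 with limma-voom, -0.0016 with no filter, -0.029 with a stricter filter and -0.019 with only the groups compared. Without the libraries highest in members the values at 25 mg/kg were -0.12 for Atp5a1, -0.040 for Cox4i1, -0.23 for Cox5a, -0.018 for Cox5b, -0.011 for Ndufa9, -0.20 for Ndufb8, -0.00066 for Sdhd and -0.075 for Uqcrc1, and at 50 mg/kg -0.022 for Atp5a1, -0.078 for Ndufa4, -0.096 for Uqcrc2 and -0.085 for Uqcrfs1. Without NaCl replicate 1 and 50 mg/kg replicate 2 together Uqcrc2 had -0.0066 at 50 mg/kg. Scaling by library totals gave -0.033 for Atp5a1 and -0.030 for Uqcrc2 at 50 mg/kg. The offset by gene span gave, at 25 mg/kg, -0.23 for Atp5a1, -0.11 for Atp5b, -0.13 for Cox4i1, -0.020 for Cox5a, -0.090 for Cox5b, -0.057 for Cox5b-ps, -0.024 for Cox6a1, -0.013 for Cox6b1, -0.27 for Cox6b2, -0.16 for Cox7a2, -0.012 for Cox8a, -0.021 for Ndufa9, -0.076 for Ndufb8, -0.17 for Ndufv1, -0.16 for Sdhd, -0.13 for Uqcrc1, -0.017 for Uqcrc2 and -0.068 for Uqcrfs1. At 50 mg/kg it gave -0.22 for Atp5a1, -0.13 for Atp5b, -0.017 for Cox4i1, -0.089 for Cox5b, -0.13 for Cox5b-ps, -0.14 for Cox6b1, -0.11 for Cox8a, 0.46 for Gpd2, -0.15 for Ndufa4, -0.053 for Ndufb8, -0.16 for Ndufv1, -0.14 for Sdhd, -0.0044 for Uqcrc1, -0.012 for Uqcrc2 and -0.24 for Uqcrfs1. Leaving out 1 library gave ranges at 25 mg/kg of -0.12 to 0.11 for Atp5a1, -0.029 to 0.15 for Uqcrc2, -0.18 to 0.33 for Cox6b2, -0.10 to 1.23 for Cox7a1, -0.077 to 0.14 for Uqcrc1, -0.041 to 0.24 for Cox4i1, -0.23 to 0.39 for Cox5a, -0.019 to 0.38 for Cox5b, -0.013 to 0.068 for Ndufa9, -0.20 to 0.37 for Ndufb8, -0.0019 to 0.13 for Sdhd and -0.022 to 1.52 for Atpif1. At 50 mg/kg the ranges were -0.096 to 0.0015 for Sdha, -0.097 to 0.13 for Uqcrc2, -0.086 to 0.25 for Uqcrfs1, -0.038 to 0.15 for Atp5a1, -0.24 to 0.033 for Idh3a and -0.079 to 0.29 for Ndufa4.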
